A study of Mus musculus with 3 samples.

Results

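The interleukin-6 (IL-6) family is described here by 10 of the 34797 gene names on the array: the ligand genes Il6, Osm, Lif and Il11, the receptor genes Il6ra, Il6st, Osmr and Lifr, and Stat3 and Socs3, the transcription factor and the feedback inhibitor of the pathway. The genes were chosen by name, and every probe that carries one of these names was taken, which gave 13 probes in 23 spots. All recipients were streptozotocin-diabetic male mice of the C57BL/6J background. Each was given 25 syngeneic islets in the splenic pulp and 100 more under the capsule of a kidney. Sample 1 was the spleen harvested on day 0, immediately after transplantation, Sample 2 the spleen of day 2, and Sample 3 the spleen of day 139, after the graft-bearing kidney had been taken out on day 100. The kidney graft stands in the treatment protocol of all 3 samples, but among their characteristics it is listed for Sample 3 only. Each condition had 1 array, the number of mice behind it is not given, and no array of a spleen without surgery or of a nondiabetic mouse was analysed here. No difference between days could therefore be tested, and every value below compares single arrays.

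Most ligands of this family bind a further receptor chain together with the shared chain gp130, the product of Il6st. The receptors activate Janus kinases, which phosphorylate STAT3, and STAT3 then enters the nucleus and induces target genes. Socs3 is one of those targets, and its protein binds gp130 and the kinases and shuts the signal off. IL-6 is a product of activated macrophages, stromal cells and other cells in injury and infection, and it drives the acute phase response of the liver and the differentiation of B and T cells.

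The arrays were read as normalized signals, which are Cy3 spot brightness after background subtraction and quantile normalization over the 3 samples. The error given with a signal or a log2 ratio is the scanner software's own error estimate and covers no difference between mice. For bright probes it was a nearly fixed share of the signal before normalization. On day 0 it was 613 of 6131 for Il6ra and 742 of 7421 for Socs3. Log2 ratios of bright probes thus all carried an error of about 0.20, and lying within or beyond it is not a test. Detected probes were those flagged well above background in 1 sample or more, which were 32108 in all and included the 13 probes of the family. A probe was called higher at a ratio of at least 1.5 with a Z-score of at least 2, and lower at a ratio of at most 0.66 with a Z-score of at most -2, where the Z-score divides the log2 ratio by the SD of the 1000 probes of most similar signal. The software marked no gene spot as saturated, and 28085 to 30291 probes per array were well above background. The spleen transcription factor gene Tlx1 was detected on all 3 arrays, at 520, 464 and 390. The spike-in controls of Sample 3 had 0.656 of their brightness in Sample 1, and scaling to them would move the median log2 ratio of all probes for day 139 over day 0 from -0.02 to 0.36, so ratios against Sample 3 are relative to the bulk of the transcripts.

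Promoter sequences were taken from a RefSeq table of mouse build GRCm38.p6, as the 250 bases before each transcript's start. The table held 11 promoters for 9 of the 10 genes, and Osm had no entry. The promoters of Il6, Socs3 and Osmr are shown because these genes were called lower after day 0. They lie at chr5:30012864-30013113 on the plus strand for Il6, at chr11:117969367-117969616 on the minus strand for Socs3 and at chr15:6874314-6874563 on the minus strand for Osmr. Capitals mark matches to 5 motifs that were chosen after the sequences were seen and searched on both strands.
Il6 promoter: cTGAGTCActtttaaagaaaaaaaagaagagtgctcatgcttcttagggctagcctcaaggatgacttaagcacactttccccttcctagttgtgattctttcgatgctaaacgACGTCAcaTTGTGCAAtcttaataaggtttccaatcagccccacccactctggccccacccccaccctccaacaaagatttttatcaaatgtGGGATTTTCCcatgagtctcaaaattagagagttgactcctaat
Socs3 promoter: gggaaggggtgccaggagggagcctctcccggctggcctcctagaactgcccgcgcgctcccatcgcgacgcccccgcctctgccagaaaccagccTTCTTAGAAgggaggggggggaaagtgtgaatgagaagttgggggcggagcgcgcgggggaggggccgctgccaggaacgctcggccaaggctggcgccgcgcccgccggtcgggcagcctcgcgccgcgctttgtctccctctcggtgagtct
Osmr promoter: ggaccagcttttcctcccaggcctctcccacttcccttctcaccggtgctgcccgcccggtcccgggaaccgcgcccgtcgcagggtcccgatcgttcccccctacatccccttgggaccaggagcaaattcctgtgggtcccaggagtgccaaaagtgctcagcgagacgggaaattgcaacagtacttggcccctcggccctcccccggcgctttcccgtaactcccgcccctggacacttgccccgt
The Il6 window held 4 matches. These were an NF-kB motif (GGGATTTTCC, with any base allowed at the fifth position) 44 to 35 bases before the start, a C/EBP motif (TTNNGCAA) 128 to 121 bases before it, a CRE core (ACGTCA) 136 to 131 bases before it and an AP-1 motif (TGANTCA) 249 to 243 bases before it. The Socs3 window held 1 match, a STAT motif (TTCNNNGAA) 154 to 146 bases before the start, and the Osmr window held none. Of the 32851 promoters in the table, 0.356% held the NF-kB motif, 9.56% the C/EBP motif, 6.47% the CRE core, 6.75% the AP-1 motif and 7.02% the STAT motif. The AP-1 motif was also found in 1 promoter each of Lif and Il11. The Il6 window had a GC content of 42.8%, against 71.6% for Socs3 and a median of 52.4% for all promoters. These are letter matches, and no binding was measured.

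The Il6 transcript was highest in the spleen on day 0 and far lower on both later arrays. The Il6 probe (mm9 chr5:30346367-30346426) had a normalized signal of 841 on day 0, 50.9 on day 2 and 40.4 on day 139. Day 0 stood far above both later arrays, and day 2 and day 139 differed by a log2 ratio of -0.33 ± 0.27 (scanner error), or 0.07 when scaled to the spike-in controls. The lowest signals still well above background lay between 12.9 and 19.3 on the 3 arrays, so Il6 remained detected on all of them. Day 2 over day 0 had a log2 ratio of -4.05 ± 0.22 (Z-score -6.87), a 16.5-fold lower signal, and day 139 over day 0 had -4.38 ± 0.26 (Z-score -6.95), 20.8-fold lower. Ranked from the lowest log2 ratio among 22851 detected genes, Il6 was number 26 in the first comparison and number 14 in the second. The probe was printed in 2 spots, whose brightness varied by a CV of 2.57% on day 0, 3.54% on day 2 and 5.37% on day 139. Fewer cells carrying a transcript and less transcript per cell cannot be told apart in whole-spleen RNA.

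The size of the Il6 difference depended on the background correction. Before background subtraction the Il6 spots had a mean brightness of 966 on day 0, 129 on day 2 and 108 on day 139, over a local background of 60.5, 60.3 and 59.0. With a normexp correction and an offset of 50 the log2 ratios were -3.01 for day 2 and -3.17 for day 139 over day 0. Both stayed called lower.

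**Figure D1:**
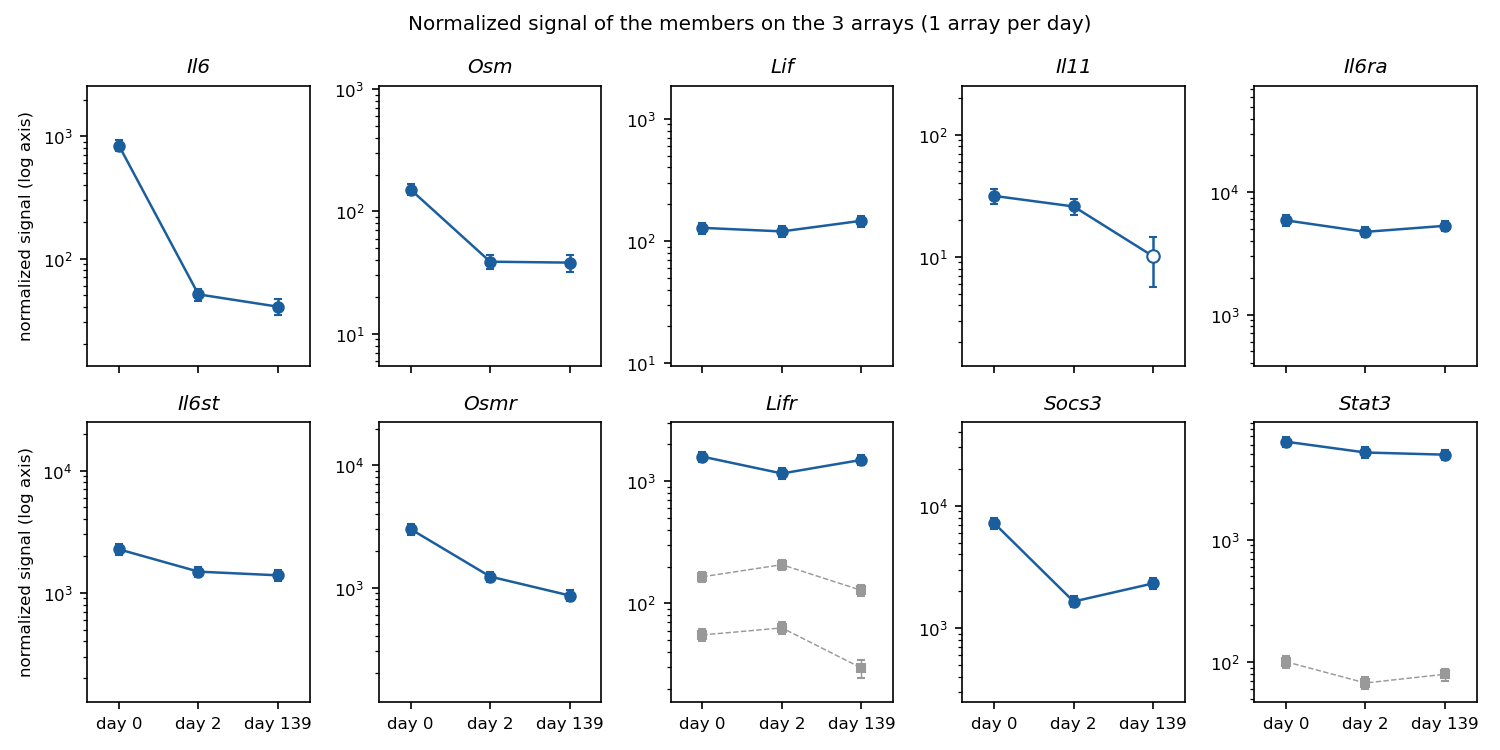
Normalized signal (log axis, the same span in every panel) of each gene on the day 0, day 2 and day 139 arrays; blue points are the probe used, grey squares are other probes of the gene, bars are the scanner's error estimate, and the open point is not well above background. Il6, Osm, Osmr and Socs3 are highest on day 0, while Lif, Il6ra and Stat3 lie almost level.

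Osm encodes oncostatin M, a ligand made mainly by neutrophils, macrophages and T cells. Its signal was 151 on day 0, 38.8 on day 2 and 38.1 on day 139. Day 139 over day 2 had a log2 ratio of -0.03 ± 0.29, or 0.37 when scaled to the spike-in controls, and both arrays lay below day 0. The log2 ratio was -1.96 ± 0.24 (Z-score -3.31) for day 2 over day 0 and -1.99 ± 0.27 (Z-score -2.70) for day 139 over day 0. With the normexp correction these became -1.03 and -1.12, and Osm was still called lower in both.

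Lif encodes leukemia inhibitory factor and is the neighbor of Osm in the genome. Their probes start 31.9 kb apart on chromosome 11 (mm9), and the RefSeq gene order of GRCm38.p6 has 0 protein-coding genes between them. The Lif signal was 128, 120 and 146 on days 0, 2 and 139. Its log2 ratio was -0.10 ± 0.21 for day 2 and 0.19 ± 0.21 for day 139 over day 0, neither beyond the scanner's error. Scaled to the spike-in controls, Lif had 0.56 for day 139 over day 0 and 0.71 for day 139 over day 2, both beyond that error. Il11 encodes interleukin-11, a ligand of stromal cells. It was dim on every array, at 31.5 on day 0, 25.8 on day 2 and 10.1 on day 139, where it was not well above background. The day 0 signal was at least 1.64-fold above that of day 139, and the log2 ratio for day 2 over day 0 was -0.29 ± 0.30. Il11 was not called in any comparison.

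Among the receptor genes, Osmr was the member called. Osmr encodes the chain that pairs with gp130 for oncostatin M. Its signal was 3006 on day 0, 1230 on day 2 and 861 on day 139. The normalized signals descended in that order, with a log2 ratio of -1.29 ± 0.20 (Z-score -3.29) for day 2 and -1.80 ± 0.20 (Z-score -2.98) for day 139 over day 0. The step from day 2 to day 139 was -0.51 ± 0.20 (Z-score -0.85) and was not called. Scaled to the spike-in controls it was -0.08, within the scanner's error, so the order of the later arrays depended on the scaling.

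Il6st, the shared gp130 chain, had signals of 2266, 1489 and 1389. Both later arrays lay below day 0, by a log2 ratio of -0.61 ± 0.20 for day 2 and -0.71 ± 0.20 for day 139. These were larger than the scanner's error but within the spread of probes of like signal, with Z-scores of -1.54 and -1.12. Il6ra, the receptor chain for IL-6, had signals of 5895, 4744 and 5317 and log2 ratios over day 0 of -0.31 ± 0.20 and -0.15 ± 0.20.

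Lifr encodes the chain that pairs with gp130 for leukemia inhibitory factor and was measured by 3 probes that did not move together. The brightest had signals of 1588, 1156 and 1494 on days 0, 2 and 139. The next had 165, 207 and 128, and the dimmest had 55.2, 63.1 and 29.6. Day 2 was thus the lowest array on the brightest probe and the highest on the other two. For day 139 over day 2 the log2 ratios were 0.37 ± 0.20, -0.70 ± 0.21 and -1.09 ± 0.29, and none of the 3 probes was called. No direction is given for Lifr.

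**Figure D2:**
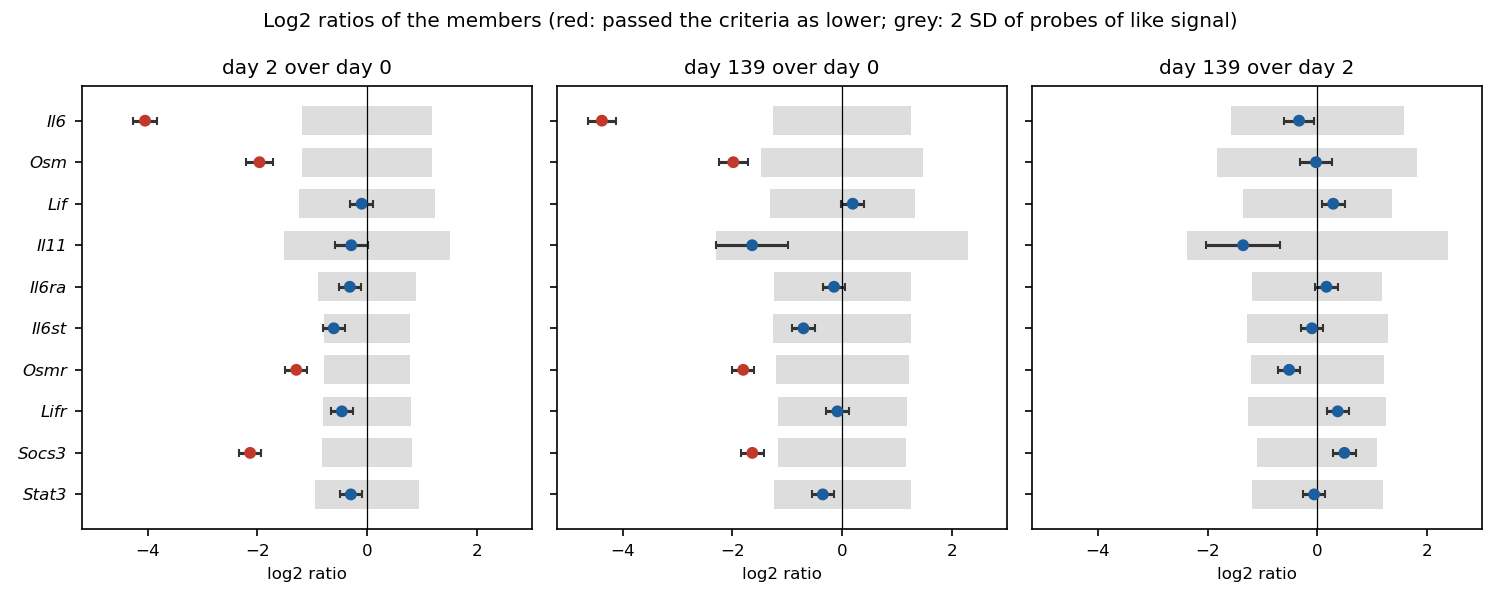
Log2 ratio of each gene in the 3 comparisons, with the scanner's error as bars and a grey band of 2 SD of the log2 ratios of probes of like signal on either side of 0. Red points met both criteria for a lower call; Il6, Osm, Osmr and Socs3 lie outside the band in both comparisons with day 0, and all 10 genes lie inside it for day 139 over day 2.

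Socs3, the feedback inhibitor, had a signal of 7204 on day 0, 1645 on day 2 and 2315 on day 139. Day 2 was the lowest array and day 139 lay between the others. The log2 ratio was -2.13 ± 0.20 (Z-score -5.24) for day 2 over day 0, a 4.38-fold lower signal, and -1.64 ± 0.20 (Z-score -2.81) for day 139 over day 0, 3.11-fold lower. Day 139 over day 2 was 0.49 ± 0.20 (Z-score 0.90), beyond the scanner's error and not called. Scaled to the spike-in controls, this last log2 ratio was 0.92 and that of day 139 over day 0 was -1.22.

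Stat3, the transcription factor, varied little between the arrays. Its brighter probe, printed in 10 spots, had signals of 6339, 5169 and 4961 with spot CVs of 1.36%, 4.03% and 3.13%. The log2 ratios over day 0 were -0.29 ± 0.20 for day 2 and -0.35 ± 0.20 for day 139. The dimmer probe had signals of 100, 67.3 and 79.3 and log2 ratios of -0.58 ± 0.22 and -0.34 ± 0.22. Neither probe was called. STAT3 activity rests on phosphorylation of the protein, which these arrays do not measure.

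Of the 10 genes, 0 were called higher and 4 lower for day 2 over day 0, with Il6, Osm, Osmr and Socs3 as the 4. Of all 32108 detected probes, 1.83% were called higher and 2.48% lower in that comparison. For day 139 over day 0, 0 of the 10 were called higher and the same 4 genes lower, against 2.59% higher and 2.07% lower for all probes. Both comparisons share the day 0 array and are not independent of each other. For day 139 over day 2, 0 of the 10 were called in either direction, against 2.54% higher and 1.59% lower for all probes. The median log2 ratio of the 10 genes was -0.53, -1.17 and -0.04 in the 3 comparisons, beside 0.02, -0.00 and -0.03 for all 22851 detected genes. The value of -1.17 counts Il11 at -1.64, although its day 139 signal was not well above background. Raising dim signals to each array's lowest signal well above background put Il11 at -0.71, which would make that median less negative. With the probe used for each gene, 10 of 10, 9 of 10 and 6 of 10 lay below 0, beside 48.4%, 52.2% and 53.1% of all detected probes. The first of these counts was 9 with the median over the probes of a gene, where Lifr was at 0.19, and 9 with the normexp correction, where Lif was at 0.00. When scaled to the spike-in controls, 6 of 10 lay below 0 for day 139 over day 0, with Il6ra, Lifr and Stat3 at 0.22, 0.32 and 0.04, while the same 4 genes were called lower. That scaling left 2 of 10 below 0 for day 139 over day 2, with Il6, Osm, Il6st and Stat3 at 0.07, 0.37, 0.33 and 0.33. That scaling also changed the calls over all probes for day 139 over day 0 from 830 higher and 666 lower to 1539 higher and 375 lower.

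**Figure D3:**
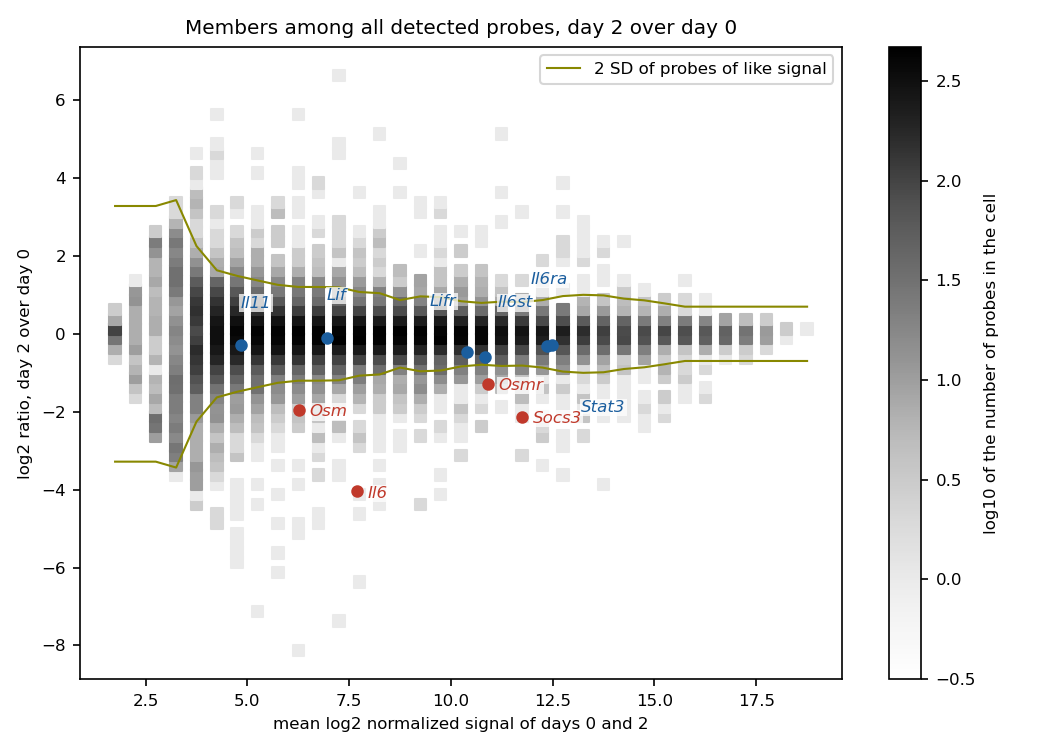
Log2 ratio of day 2 over day 0 against the mean log2 signal of both arrays, with the number of detected probes per cell in grey and lines at 2 SD of probes of like signal. Il6, at -4.05, lies among the lowest probes of its signal range; Osm, Osmr and Socs3 (red) lie below the lower line and the other members (blue) above it.

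The remaining ligand and receptor genes of the family showed few calls, and at the shares over all probes given above few would be called in any short list. Of 8 further ligand genes, 6 were detected, and 0 of these were called in either comparison with day 0. Of 4 further receptor genes, Cntfr, the ciliary neurotrophic factor receptor, was called lower against day 0 in both comparisons. Its signals were 195, 60.8 and 60.6. Il11ra1, the receptor for interleukin-11, had 5052, 4818 and 5362.

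Genes of the machinery behind the receptors were mostly not called, as were most detected probes (1.59% to 2.59% called per direction and comparison). Of 7 genes for kinases, STATs and adaptors, 0 were called in any comparison. Jak1, a kinase bound to gp130, had signals of 7315, 6228 and 7815. Of 7 other negative regulators, 0 were called. The largest log2 ratio among those detected on all arrays was that of Cish, a STAT5-induced member of the Socs family, with -1.09 ± 0.20 (Z-score -1.97) for day 139 over day 0. Its signals were 1198, 750 and 562. Socs1, the closest relative of Socs3 in function, had 617, 473 and 598, and its log2 ratios over day 0 were -0.38 and -0.04. Adam10 and Adam17, proteases that shed the IL-6 receptor from the cell surface, were not called either. Of 4 genes that control the stability of Il6 mRNA, 1 was called. This was Arid5a, whose protein stabilizes the Il6 message, with signals of 4296, 2128 and 3098 and a log2 ratio of -1.01 ± 0.20 for day 2 over day 0. Zc3h12a, which encodes the nuclease Regnase-1 that degrades it, had 97.6, 92.6 and 114.

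Reported STAT3 target genes lay mostly below their day 0 signal on both later arrays. The list held 23 genes besides the members, all detected, and was written from general knowledge with earlier results of these data known. For day 2 over day 0, 0 were called higher and 8 lower, 20 of 23 had a log2 ratio below 0, and the median was -0.79 beside 0.02 for all genes. Of all detected probes, 1.83% were called higher, 2.48% were called lower and 48.4% lay below 0. For day 139 over day 0, 0 were called higher and 9 lower, 18 of 23 were below 0, and the median was -0.92 beside -0.00. Here 2.59% of all detected probes were called higher, 2.07% were called lower and 52.2% lay below 0. For day 139 over day 2, 0 were called higher and 2 lower, with a median of -0.16 beside -0.03. Several of these genes answer to other factors as well, and no share of their change was assigned to STAT3.

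The acute phase genes of the list showed different courses. Hp, which encodes the hemoglobin-binding protein haptoglobin, had signals of 15399.5, 3339 and 2695. Lrg1, a secreted leucine-rich glycoprotein that neutrophils also store, had 21678, 5725 and 3488. Both were highest on day 0, with log2 ratios of -2.21 ± 0.20 and -1.92 ± 0.20 for day 2 over day 0. Saa3, an extrahepatic serum amyloid A, had 7835, 13382 and 403, so day 2 was its highest array. Its log2 ratio was 0.77 ± 0.20 for day 2 over day 0 and was not called, and -5.05 ± 0.20 for day 139 over day 2. Timp1, an inhibitor of matrix metalloproteinases, had 5972, 3649 and 567, and its log2 ratio of -0.71 for day 2 over day 0 was not called either, while that of -3.40 for day 139 over day 0 was. Ier3, an early response gene, had 670, 229 and 183. Cebpd, a transcription factor of the acute phase response, had 8457, 4268 and 2386, the same order of normalized signals as Osmr. Among target genes with a log2 ratio above 0 for day 139 over day 0, none was called.

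**Figure D4:**
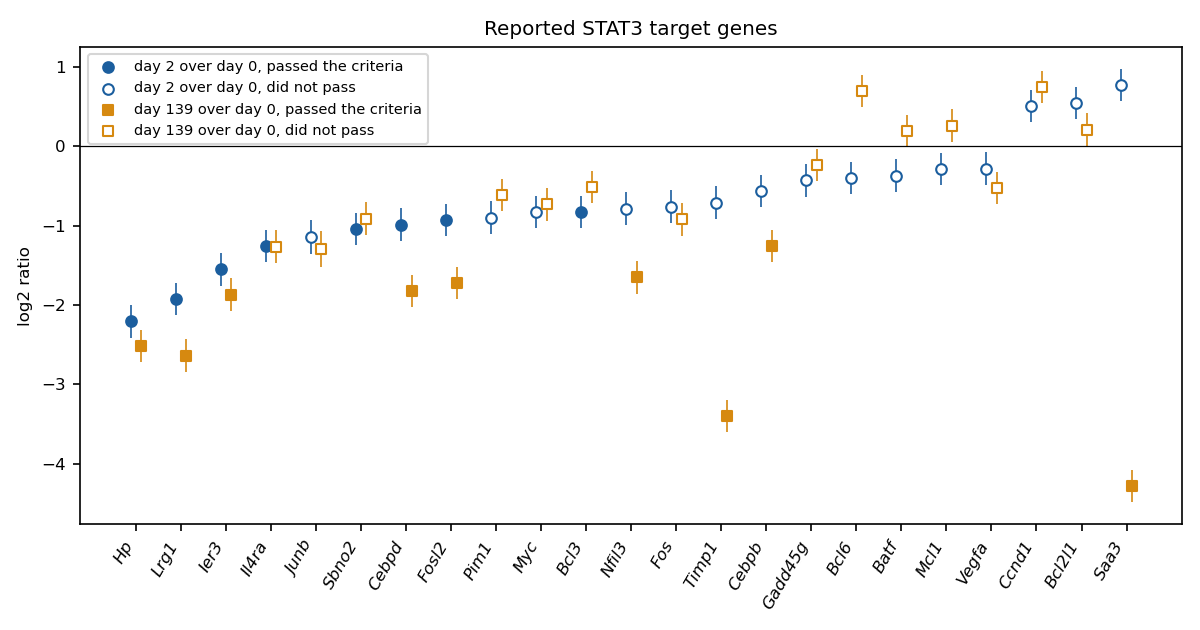
Log2 ratios of the 23 reported STAT3 target genes for day 2 over day 0 (blue circles) and day 139 over day 0 (orange squares), ordered by the first, with the scanner's error as bars and filled symbols for called genes. On day 2, 20 of the 23 points lie below 0, and Saa3 and Timp1 show the widest gap between their blue and orange points.

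Genes that induce Il6 or respond early with it were followed as 10 genes, all detected. For day 2 over day 0, 5 were called lower and 0 higher, with a median log2 ratio of -1.07 beside 0.02 for all genes. For day 139 over day 0, 5 were called lower and 0 higher, with a median of -1.14 beside -0.00. Of all detected probes, 2.48% and 2.07% were called lower in these comparisons. The list did not move as a whole. Its genes that were not called had log2 ratios of up to -0.11 for day 2 and up to 0.20 for day 139 over day 0. Il1b, the interleukin-1 beta gene, had signals of 3926, 721 and 1378. Its course resembled that of Socs3, with the lowest signal on day 2. The neutrophil chemoattractant gene Cxcl2 had 257 and 38.9 on days 0 and 2 and was not well above background on day 139, where it was at least 13.3-fold lower than on day 0. Cxcl1 had 158 and 40.7 and was at least 8.21-fold lower on day 139. Ptgs2, the inducible cyclooxygenase, had 76.5 on day 0, and the day 2 and day 139 signals were at least 5.45-fold and 3.97-fold lower. Ccl2, a monocyte chemoattractant, had 1957, 1007 and 151, with its larger step after day 2. Tnf was not called, at 166, 82.1 and 191, and its day 139 signal was above that of day 0.

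The genes with the most similar pattern were sought for Il6, Osm and Socs3 among the 15739 other detected genes whose name is in the RefSeq table, a restriction added after the values were seen, by the Euclidean distance between their pairs of log2 ratios over day 0. For Il6 the nearest was Mmp8, the neutrophil collagenase, at a distance of 0.41 and with signals of 3033, 140 and 135. Mmp8 was the 1 gene within a distance of 0.5. Tyrp1, Hrasls5, Il1r2 and Pmel followed, and of these Il1r2, the decoy receptor for interleukin-1, was well above background on all arrays, with 2699, 238 and 150. Tyrp1, Hrasls5 and Pmel were well above background on day 0 alone. Osm had 55 genes within that distance, led by Ccno, Mmp24, Olfr609, Rfesd and Gcnt2, and of these Olfr609 and Gcnt2 were well above background on all arrays. Socs3 had 41, led by Papln, 9030625G05Rik, S100a8, Orm1 and Gm12633, of which S100a8 was well above background on all 3 arrays, at a distance of 0.18. With 3 arrays a pattern has only a pair of ratios, and the likeness is a description of these arrays.

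Part of the neutrophil marker list moved with the called genes. Of 8 neutrophil genes, 5 were called lower for day 2 and 5 for day 139 over day 0. Over all detected probes, 2.48% and 2.07% were called lower. The summed signal of all 8 was 226370, 75892 and 87573 on the 3 arrays, and on day 0 S100a9 gave 147009 and S100a8 53944 of it. The called genes were S100a8, S100a9, Retnlg, Mmp8 and Cxcr2 in both. Cxcr2, the receptor for the Cxcl1 and Cxcl2 proteins, had 1443, 242 and 283. The granule genes Ngp, Ltf and Camp, which are transcribed in immature neutrophils, were not called. Their log2 ratios over day 0 were all above 0, and Camp had 5295, 7500 and 8696. All 8 were well above background on every array. Their part in the values of Il6, Osm, Osmr and Socs3 was not tested.

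Markers of macrophages changed less. Of 8 genes, Spic was called lower for day 2 over day 0 and Marco for day 139 over day 0, and the summed signal was 108321, 103242 and 94917. Csf1r, the receptor for colony-stimulating factor 1, had 30569, 30188 and 33411. Of 6 fibroblast genes, the collagens Col1a1, Col1a2 and Col3a1 were called higher on day 2, and the summed signal was 13228, 53907 and 21412. Dcn, at 1585, 2067 and 9669.9, was called higher for day 139 over day 0, and Pdgfra, at 1189, 649 and 422, lower. Of 6 mesothelial genes, 5 were called higher over day 0 at both later times, with 3 of the 6 not well above background on day 0 and a summed signal of 1624, 2151 and 4665. Wt1, the gene not called, gave 1492, 1443 and 1057 of these sums. Of 6 endothelial genes, 0 were called. B-cell genes were called higher on day 139 over day 0 in 4 of 5 cases, with a summed signal of 32996, 33165 and 70646. For T cells, 0 of 5 genes were called, and the summed signal was 11402, 15546 and 20971. Of 5 erythroid genes, 0 were called. Islet genes were called higher for day 2 over day 0 in 4 of 6 cases, lower for day 139 over day 0 in 1 and lower for day 139 over day 2 in 6. Exocrine pancreas genes were called higher on day 139 over day 0 in 3 of 5 cases, and adipocyte genes in 2 of the 3 detected. Over all detected probes, 1.59% to 2.59% were called per direction and comparison. The part of these cell types in the members' values was not tested.

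**Figure D5:**
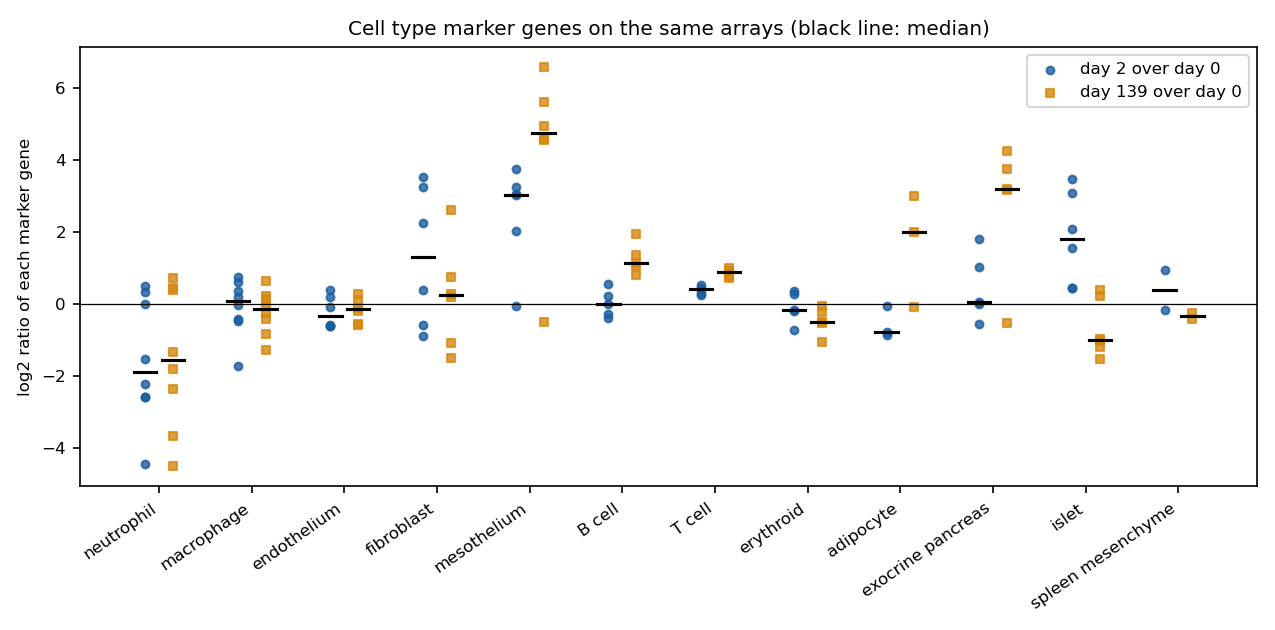
Log2 ratios of single marker genes of each cell type list for day 2 (blue circles) and day 139 (orange squares) over day 0, with the list median as a black line. Neutrophil markers split into 5 genes well below 0 and 3 at or above it, while macrophage and endothelial markers lie on both sides of 0 and mesothelial markers mostly above it.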

How the data were processed

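Spleen RNA of Sample 1 (day 0), Sample 2 (day 2) and Sample 3 (day 139) was hybridized to 1 one-color array of 60-base probes each. The authors deposited the scanner output, which holds spot intensity on a linear scale with background subtracted by Feature Extraction, and a table of processed intensity values. The scanner files name Feature Extraction 10.7.1.1, while the submitters' processing notes name 9.5.1.1. RNA purification and labeling kits differ between the labels and the study's methods. Scanner files give mm9 probe positions.

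Control and outlier-flagged spots were left out, spots of a probe were averaged, and 55679 probes were quantile normalized and log2-transformed after setting a floor of 1. The deposited table, used as an alternative, differed from these values by at most 0.167% for the members. Detection required the well above background flag on more than 0.5 of a probe's spots on at least 1 array. Each gene was represented by its brightest detected probe. Where a signal was not well above background, a bound was taken against the higher of that signal and the lowest signal well above background on that array. The number of arrays limits the precision, and no p-value was computed.

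The members, gene lists and named genes were chosen with earlier results of these data known. Named were all members, up to 6 genes of each pathway list (those called first, by absolute log2 ratio), marker genes beside the results they touch, and the 5 nearest patterns of Il6, Osm and Socs3. Some genes of the pathway lists are not reported here by name. Alternatives covered scaling, background correction, the detection filter, the floor, the spread behind the Z-score, the ratio limit and the choice of probe. Python 3.11.15 with numpy 2.4.6, pandas 2.3.3 and matplotlib 3.10.9, and limma 3.58.1 in R 4.3.3, were used.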

Additional observations from a re-analysis of the deposited data

How the results depend on the processing

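The 4 calls against day 0 (Il6, Osm, Osmr and Socs3) remained under every alternative except one. With 1 SD over all probes 3 were called in each comparison, without Osmr for day 2 and without Socs3 for day 139. With a scaled median absolute deviation 5 were called for day 2, with Il6st added, and 6 for day 139, with Il6st and Il11 added. For day 139 over day 2 the count was 0 under all alternatives. Of 267 recomputed log2 ratios of the members, 238 moved by less than the scanner's error and 29 by more, under spike-in scaling, normexp, the median over the Lifr probes or, for Il11, the higher floor. The 8 STAT3 target genes called for day 2 over day 0 became 3 with 1 SD over all probes, 15 with the median absolute deviation, 5 with a ratio limit of 2 or 0.5 and 5 with the median over probes. They became 6 with 75th percentile scaling, 7 with spike-in scaling and 6 with a Z-score window of 250 probes. The 9 for day 139 over day 0 became 7 with spike-in scaling, 7 with 1 SD over all probes and 10 with normexp. The 2 for day 139 over day 2 became 3 with spike-in scaling, where Bcl6 was called higher. With the median absolute deviation, the 9 became 15 and the 2 became 6. Of the 15, 15 and 6 called with that spread, 1 (Saa3), 2 (Bcl6 and Ccnd1) and 1 (Bcl6) were higher, against 0 in the values reported. Over all probes, that spread raised the calls for day 2 over day 0 from 588 higher and 796 lower to 1306 and 1584, and those for day 139 over day 0 from 830 and 666 to 1770 and 1731, and gave 1605 and 1479 for day 139 over day 2. Raising dim signals to each array's own limit of detection gave 1457 higher for day 139 over day 0 and 1335 higher for day 139 over day 2. Spike-in scaling gave 1694 higher and 240 lower for day 139 over day 2, against 816 and 509. Apart from the construction of these alternatives, the cause was not tested. No paired analysis was possible because each condition had 1 array. Dim signals limit Il11, Osm and the later Il6 values, and Il6, Osm, Osmr and Socs3 each rest on 1 probe.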
